A study of Saccharomyces cerevisiae with 24 samples.

Results

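The genes described here encode the proteins of the large (60S) subunit of the cytosolic ribosome of budding yeast. They are the entries that the deposited tables mark as cytosolic ribosomal protein genes and whose names are RPL with a number and an optional A or B, or RPP0, RPP1A, RPP1B, RPP2A or RPP2B. The rule finds 81 genes, of which 73 carry values, out of 6304 genes with values in all. The 8 without values are RPL1A, RPL1B, RPL35A, RPL35B, RPL41A, RPL41B, RPL42A and RPL42B. The tables were made with part of the positions masked, and 5 to 1131 positions (median 124) were counted per member, with 50 or more in 67 members. All 73 passed the filter on low values.

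Messenger RNA (RNA-seq of rRNA-depleted total RNA) and ribosome-protected fragments (footprints of 18 to 34 nt, from ribosome profiling) were measured in the same cultures of Saccharomyces cerevisiae in the CEN.PK background. The strains carried the Dim1 variant E85Q, the Dim1 variant D87E or wild-type Dim1 (WT), and Dim1 is the enzyme that dimethylates adenosines of 18S rRNA. Each genotype was sampled after 2 h in medium without sulfur (called without methionine, or starved) and during growth with 1 mM methionine. Each of the 6 groups held 2 samples from differently numbered strains, called isolates here: 623 and 625 for E85Q, 887 and 888 for D87E, and 172 and 600 for WT. The series title asks how sulfur supply acts on translation through methylation of 18S rRNA. A point change in DIM1 cannot be seen in values per gene, so the genotype labels were not checked.

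A 60S subunit holds 1 copy of nearly every large-subunit protein, and yeast makes most of them from a pair of paralogous genes named A and B. Together with the genes of the small (40S) subunit these genes are among the most highly transcribed in growing cells, and they are turned down together when nutrients run out. The exceptions to the single copy are the acidic stalk proteins P1 and P2, which bind in pairs to P0 and recruit the GTPases of translation.

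Depth behind the values was 24.3 to 32.3 M recovered reads (M, 1e6) per RNA-seq library and 21.4 to 81.4 M per footprint library. The unit is RPKM, a read number divided by counted gene length and by library reads, which is relative within a library. A fall of some genes therefore cannot be told apart from a rise of the others. The total amount of RNA or of translation per cell does not enter the values. Differences are on the log2(RPKM + 1) scale, which understates those of low genes, and were tested with limma. A gene was called at a Benjamini-Hochberg adjusted p below 0.05 over the 4888 genes tested. The p-values rest on the spread between the 2 isolates of a group, pooled over all 6 groups. The spread of starved groups therefore also enters comparisons of growing cells. Isolates of a genotype lay close together in growing cells, with median differences over the members of at most 0.19 in footprints. Without methionine they stood apart: footprints of the members were lower in WT 600 than in WT 172 in 71 of 73 genes (median -0.72), and lower in D87E 888 than in D87E 887 in 71 of 73 (median -0.70). In mRNA, starved WT 600 lay below WT 172 by a median of -0.20, starved D87E 888 below D87E 887 by -0.74, and starved E85Q 625 above E85Q 623 by 0.44.

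In cells growing with methionine, the members held 17.3% to 18.1% of the summed mRNA RPKM in the E85Q and D87E libraries, and 16.5% and 17.4% in the WT libraries. In footprints they held 18.5% to 20.7% in the mutants and 17.8% and 18.8% in WT. Summed over paralogs, which gives 1 value per protein, 36 protein families with at least 50 counted positions and without the stalk proteins could be compared per length. Their footprint levels in growing cells lay close together: the highest family stood 2.01 to 2.50 times above the lowest, with a standard deviation across families of 0.23 to 0.28 on the log2 scale. The highest was RPL39, a small protein that lines the exit tunnel, in 5 of the 6 growing libraries. The mRNA levels of the same families were spread more widely, with a standard deviation of 0.60 to 0.66.

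Without methionine this evenness of the footprints was lower. The highest family stood 3.99 and 5.06 times above the lowest in E85Q, 8.10 and 9.59 times in D87E, and 5.07 and 7.63 times in WT. The highest was RPL10 and the lowest RPL5 in all 6 starved footprint libraries, each encoded by a single gene. RPL10 (YLR075W, chromosome XII, 282927 to 283592 in the R64 annotation) encodes the protein that completes the subunit in the cytoplasm, next to the peptidyl transferase centre. RPL5 (YPL131W, chromosome XVI, 303121 to 304014) encodes the protein that carries 5S rRNA into the subunit.

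Starvation lowered nearly every member in each genotype. In mRNA, 71 of 73 members fell in E85Q, where 30.3% of all tested genes fell, 71 fell in D87E against 25.5% of all genes, and 72 fell in WT against 26.7%. The median change of the members was -2.45 in E85Q, -3.78 in D87E and -4.12 in WT on the log2 scale, while the median of all tested genes was 0.14, 0.41 and 0.40. In footprints, 72 of 73 members fell in each genotype, with medians of -2.63 in E85Q, -3.67 in D87E and -3.68 in WT, beside 30.6%, 35% and 32.1% of all genes and all-gene medians of 0.13, 0.15 and 0.23. The 53 genes of the 40S subunit had like medians, of -2.31, -3.84 and -4.15 in mRNA and -2.41, -3.62 and -3.66 in footprints for E85Q, D87E and WT.

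The share of the summed RPKM shows how far the group fell. In mRNA it was 3.44% and 4.57% in starved E85Q against 18.1% in both growing E85Q libraries, 2.06% and 1.28% in starved D87E against 17.3% in both growing ones, and 1.37% and 1.21% in starved WT against 16.5% and 17.4% with methionine. In footprints it was 3.53% and 4.17% against 20.7% and 19.9% in E85Q, 2.26% and 1.47% against 18.5% in both libraries in D87E, and 2.14% and 1.41% against 17.8% and 18.8% in WT. No starved library overlapped a growing one. The 60S sum divided by the 40S sum of mRNA was 1.25 and 1.28 in starved E85Q against 1.31 and 1.33 with methionine. The same ratio was 1.47 and 1.45 in starved D87E against 1.30 in both growing libraries, and 1.47 and 1.46 in starved WT against 1.29 and 1.31, so in mRNA it stood higher without methionine in those 2 genotypes and lower in E85Q. In footprints it was lower without methionine in all 3, at 1.27 and 1.29 in starved E85Q against 1.51 and 1.48, 1.30 and 1.22 in starved D87E against 1.44 in both growing libraries, and 1.39 and 1.24 in starved WT against 1.44 and 1.46.

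**Figure D1:**
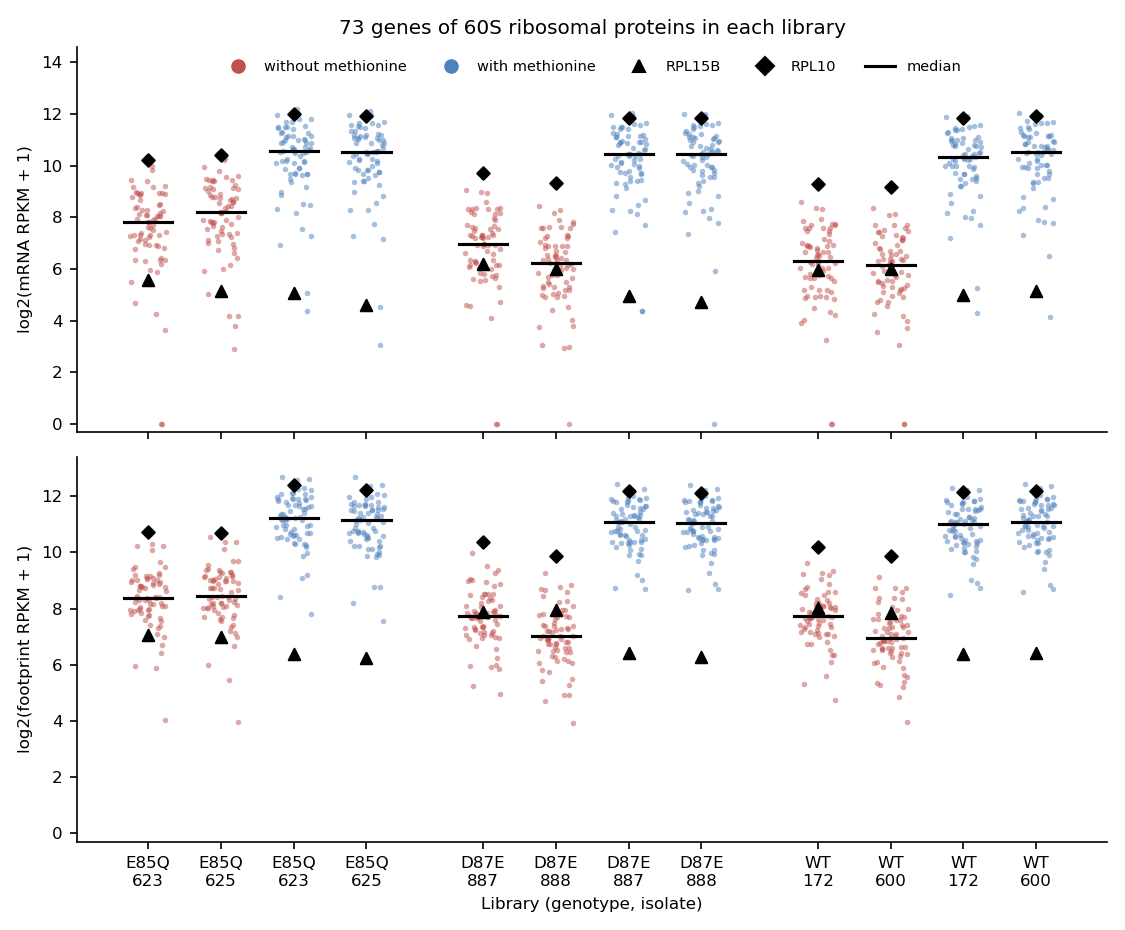
Level of each of the 73 genes in each library, as log2(RPKM + 1), for mRNA (top) and footprints (bottom). Red points are libraries without methionine and blue points libraries with methionine, black bars are medians, triangles mark RPL15B and diamonds RPL10; RPL15B is higher without methionine while the medians are lower.

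The one member that rose was RPL15B (YMR121C, chromosome XIII, 509734 to 510348). RPL15 is an RNA-binding protein in the interior of the subunit, made almost wholly from RPL15A (YLR029C, chromosome XII, 201976 to 202590) in growing cells. Each copy was counted over 124 positions, and whether reads of one copy were counted for the other was not tested. RPL15B mRNA was 46.7 and 34.7 RPKM in starved E85Q against 33.1 and 23.5 with methionine, 72.8 and 63.5 in starved D87E against 29.8 and 25.2, and 62.0 and 62.4 in starved WT against 31.0 and 34.2. Each starved pair lay above its growing pair. Its footprints were 133.7 and 126.1 RPKM in starved E85Q against 82.8 and 74.8, 232.2 and 248.9 in starved D87E against 84.2 and 76.8, and 258.2 and 226.6 in starved WT against 82.2 and 85.2.

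These values gave footprint changes of RPL15B of 0.72 in E85Q (SE 0.09, adjusted p = 3.6e-05), 1.57 in D87E (adjusted p = 7.2e-08) and 1.52 in WT (adjusted p = 9.7e-08). The footprint rise was smaller in E85Q than in WT by -0.81 (SE 0.12, adjusted p = 0.0013), and smaller than in D87E by -0.85 (adjusted p = 0.0011). The mRNA changes were 0.51 in E85Q (SE 0.16, adjusted p = 0.015), 1.28 in D87E (adjusted p = 2.7e-05) and 0.91 in WT (adjusted p = 0.00036). The E85Q mRNA call of RPL15B was lost without the starved library of isolate 623 (change 0.31, adjusted p = 0.15) or without the growing library of isolate 625 (change 0.28, adjusted p = 0.16). With libraries centred on their median gene the mRNA changes of RPL15B were 0.42, 0.88 and 0.51, all still called.

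RPL15A fell like the rest of the group. Its footprints were 497.5 and 553.1 RPKM in starved E85Q against 4055 and 4021 with methionine, 270.7 and 215.8 in starved D87E against 3877 and 3740, and 374.9 and 198.7 in starved WT against 3736 and 3768. The footprint changes of RPL15A were -2.94 in E85Q, -3.97 in D87E and -3.78 in WT. RPL15A therefore held 80.1% of the RPL15 footprints in starved E85Q against 98.1% in growing E85Q, 50.1% in starved D87E against 97.9%, and 53.0% in starved WT against 97.8% (means of 2 isolates). In starved D87E 888 and in starved WT 600 it held 46.4% and 46.7%, less than RPL15B. Of the mRNA RPL15A kept 95.1% in starved E85Q, 86.3% in starved D87E and 85.2% in starved WT, against 99.2% to 99.3% in the growing groups.

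**Figure D2:**
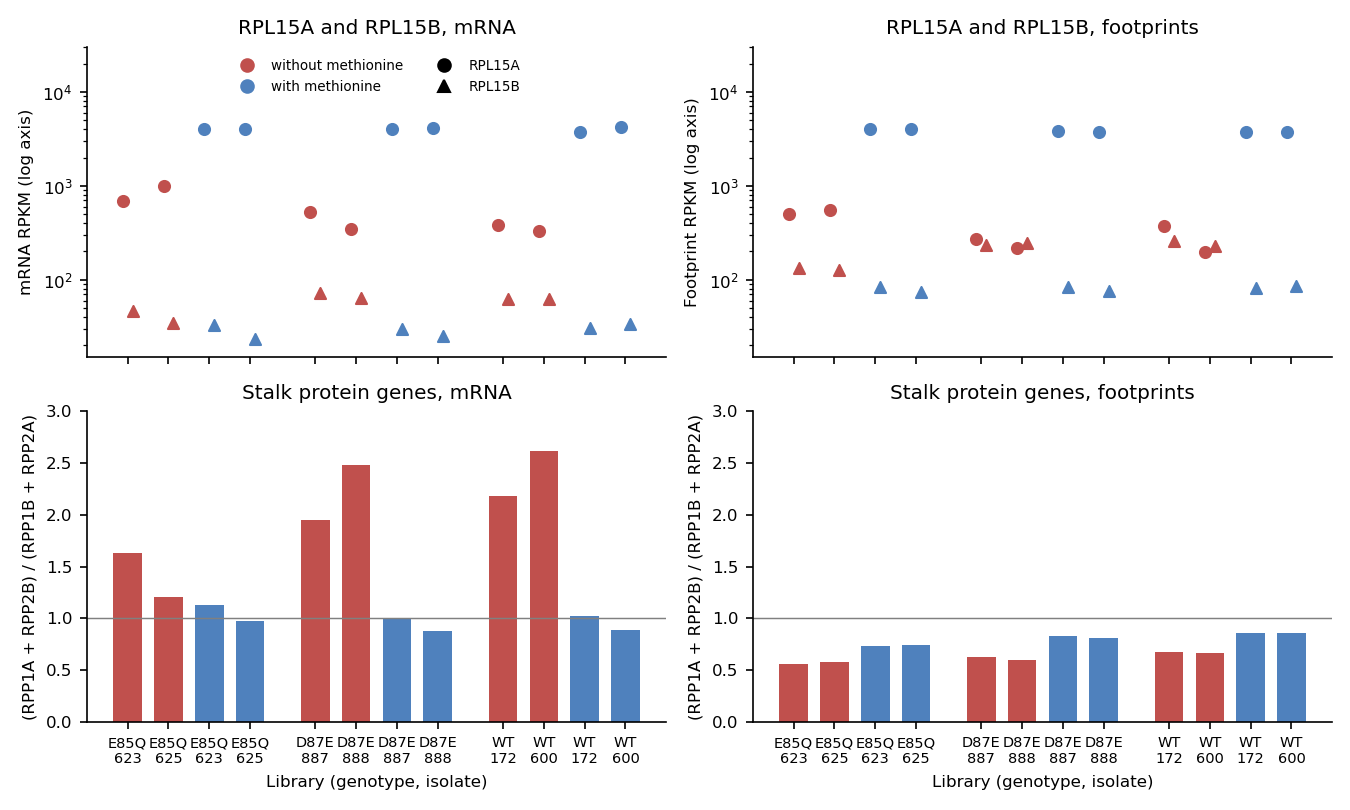
Top, RPKM of RPL15A (circles) and RPL15B (triangles) in each library on a log axis, for mRNA (left) and footprints (right). Bottom, the ratio of RPP1A plus RPP2B to RPP1B plus RPP2A in each library, which without methionine (red) is above the level with methionine (blue) in mRNA and below it in footprints.

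Among the falling members the smallest change was that of RPL10, except in D87E footprints, where RPL40B changed by -1.97. Its mRNA was 1198 and 1366 RPKM in starved E85Q against 4069 and 3939 with methionine, 834.4 and 647.5 in starved D87E against 3650 and 3708, and 629.3 and 585.3 in starved WT against 3660 and 3868. RPL10 fell in mRNA by 1.64 in E85Q, 2.32 in D87E and 2.63 in WT, and in footprints by 1.60, 2.02 and 2.14 in the same order (largest adjusted p = 1.5e-05). RPL28, another protein near the peptidyl transferase centre, had footprint changes of -1.79, -2.86 and -3.00, and RPL3, which spans that region, had -2.58, -3.93 and -3.92. RPL39 changed by -2.31, -2.80 and -3.00 in footprints.

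The largest falls in D87E and WT were those of RPL9A, with RPL12A, RPL26B, RPL8A and RPL5 next, in E85Q mRNA those of RPL12A, RPL7B (-3.42) and RPL22B, and in E85Q footprints those of RPL22B and RPL12A. RPL9A (YGL147C, chromosome VII, 227754 to 228329) encodes a protein near the base of the stalk. Its footprints were 248.1 and 289.3 RPKM in starved E85Q against 2663 and 2275, 36.8 and 25.1 in starved D87E against 2146 and 2132, and 104.7 and 37.7 in starved WT against 1975 and 2213. The 2 starved WT isolates differed widely in this gene. RPL9A changed by -3.20 in E85Q, -6.09 in D87E and -5.03 in WT in footprints, and by -3.06, -5.11 and -5.50 in mRNA. RPL12A, which encodes a protein of the stalk base, changed by -3.59, -4.72 and -5.11 in mRNA and by -3.64, -4.83 and -4.54 in footprints. RPL22B, from which a minor share of Rpl22 is made, changed by -3.31, -3.46 and -3.78 in mRNA and by -3.67, -4.25 and -4.36 in footprints. The mRNA changes of RPL26B, which encodes a tunnel exit protein, were -3.02, -4.65 and -5.07, and those of RPL31B, also at the tunnel exit, were -3.22, -4.28 and -4.64.

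RPL5 is bound by 5S rRNA together with RPL11, and RPL5 fell by more than the median member in both measures and each genotype. RPL5 footprints were 331.6 and 415.7 RPKM in starved E85Q against 3812 and 3351, 163.6 and 97.8 in starved D87E against 3686 and 3568, and 232.4 and 122.6 in starved WT against 3470 and 3522. The footprint changes of RPL5 were -3.26, -4.83 and -4.36, and those of mRNA -2.87, -4.55 and -4.94 (E85Q, D87E, WT). Like nearly every member, all 3 genes of the 5S group (RPL5, RPL11A, RPL11B) fell in mRNA and footprints in each genotype. RPL11A and RPL11B rest on 37 and 30 counted positions. The 11 members without an A or B paralog all fell in both measures and every genotype, as nearly every member did. The mRNA changes of these 11 lay between -2.87 and -1.65 in E85Q, -4.55 and -2.32 in D87E, and -4.94 and -2.63 in WT. Among them RPL25, the binding site of the signal recognition particle at the tunnel exit, changed by -2.35, -3.61 and -4.03, RPL29 by -2.22, -3.72 and -3.77, RPL30, which represses splicing of its own transcript, by -2.45, -3.88 and -4.34, RPL32 by -2.13, -3.78 and -4.15, and RPL38 by -2.82, -4.03 and -4.25. RPL4A and RPL4B rest on 5 counted positions each and are not described further.

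The fall was smaller in E85Q than in the other genotypes. The starvation response of mRNA was less negative in E85Q than in WT in 67 of 73 members, with a median difference of 1.60, beside 11.8% of all genes called in that direction and an all-gene median of -0.28. Against D87E it was less negative in 61 members (median 1.29, background 10%) and more positive in D87E for 1, RPL15B, a call that was lost with median-centred libraries (difference -0.46, adjusted p = 0.12). Without methionine, 69 members were higher in E85Q than in WT in mRNA (median 1.70, background 15.7%). The exception, RPL15B, was lower.

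In footprints the counts of these differences were smaller and moved with single libraries. Without methionine 62 members were higher in E85Q than in WT (median 1.16, background 20.6%), and 40 members were called in all when starved WT 600 was left out. The response of E85Q differed from that of WT in 34 members upward (median 1.03, background 13.8%) and in RPL15B downward, 35 in all. Leaving out 1 library at a time gave 22 (starved E85Q 623), 6 (starved E85Q 625), 9 (growing E85Q 625), 55 (starved WT 172), 7 (starved WT 600), 16 (growing WT 172) and 7 (growing WT 600), and testing without the filter on low values gave 9. Against D87E, 30 members differed upward (median 0.96, background 16.4%) and RPL15B downward, 31 in all. That count was 18 and 5 without starved E85Q 623 and 625, 18 and 9 without growing E85Q 623 and 625, 60 and 16 without starved D87E 887 and 888, and 8 without either growing D87E library, and 6 without the filter.

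RPL8A and RPL24A had the largest such differences in mRNA. RPL8A, whose protein is needed for processing of large-subunit rRNA, was 80.9 and 125.0 RPKM in starved E85Q against 584.8 and 602.0 with methionine. In starved WT it was 19.0 and 17.1 RPKM against 688.1 and 734.3. The difference of the responses was 2.68 (SE 0.43, adjusted p = 0.00056). It was 2.47 for RPL24A (SE 0.31, adjusted p = 0.00018), which forms a bridge between the subunits, 2.44 for RPL9A (SE 0.34, adjusted p = 0.00031) and 2.40 for RPL16B (SE 0.30, adjusted p = 0.00018). Against D87E the mRNA difference was 2.06 for RPL9A (adjusted p = 0.00081), 2.02 for RPP1B (adjusted p = 0.0024) and 1.94 for RPL24A (adjusted p = 0.00063). In footprints RPL9A also led against D87E, at 2.90 (SE 0.52, adjusted p = 0.0028), ahead of RPL30 at 1.68, RPL17B, which lies at the tunnel exit, at 1.62 and RPL5 at 1.57.

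With methionine no member was called between E85Q and WT, while 28.6% of all tested genes were called in mRNA and 7.61% in footprints (0.143% in translational efficiency). At an unadjusted p below 0.05 there was 1 member in each measure, and the share of all genes at that threshold was not counted. RPL22B (YFL034C-A, chromosome VI, 64243 to 64932), the minor copy of the RPL22 pair, had 223.2 and 186.4 footprint RPKM in growing E85Q against 420.0 and 410.4 in growing WT. Those values do not overlap, and the difference of -1.02 had an adjusted p of 0.069 by limma. The difference RPL22A minus RPL22B, fitted over the 54 A/B pairs of the tables, was called in growing E85Q against WT in each measure, as described with the paralogs. The share of all genes called with a library left out is not given here, so the next count has no background. Without either starved D87E library, whose spread enters the pooled estimate, 9 members were called in mRNA.

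Between D87E and WT no single member was called in any measure, while some differences between paralogs were, as described with the pairs. With methionine 0%, 0.0614% and 0.143% of all genes were called in mRNA, footprints and translational efficiency, and no member had an unadjusted p below 0.05. Without methionine 0%, 0% and 0.0205% of all genes were called by limma, and 20, 2 and 25 members had an unadjusted p below 0.05. The share of all genes at that unadjusted p was not counted in these comparisons, so such numbers of members have no background. Counts with a library left out, given next, have none either, since the share of all genes called in those fits is not given here. Leaving out starved D87E 888 gave 39 called members in mRNA and 2 in footprints, and leaving out starved WT 600 gave 1 in footprints and 19 in translational efficiency. The starvation responses of D87E and WT differed in 0 members and 0% of all genes in each measure, with 3, 0 and 13 members at an unadjusted p below 0.05. That count was 1 in mRNA without starved D87E 888, and 1 in footprints and 5 in translational efficiency without starved WT 600.

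Translational efficiency (TE) was taken per sample as log2 footprints minus log2 mRNA. In starved WT 41 members rose in TE and 3 fell, with a median change of 0.55, beside 16.7% of all genes rising, 36.6% falling and an all-gene median of -0.12. In D87E 17 rose and 7 fell (median 0.24), beside 13.1% and 47.9% of all genes and a median of -0.23. With the libraries centred on their median gene, which shifts the TE of all genes together, the D87E split was 41 to 4. The shares of all genes given here are without centring, so they are no background for that split. In E85Q none rose and 3 fell (median -0.10), beside 1.92% and 4.28% of all genes and a median of 0.00. Of the members, 17 rose in both WT and D87E, and RPP1A and RPP2B fell in every genotype. How many of all tested genes did so was not counted, so these overlaps have no background.

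**Figure D3:**
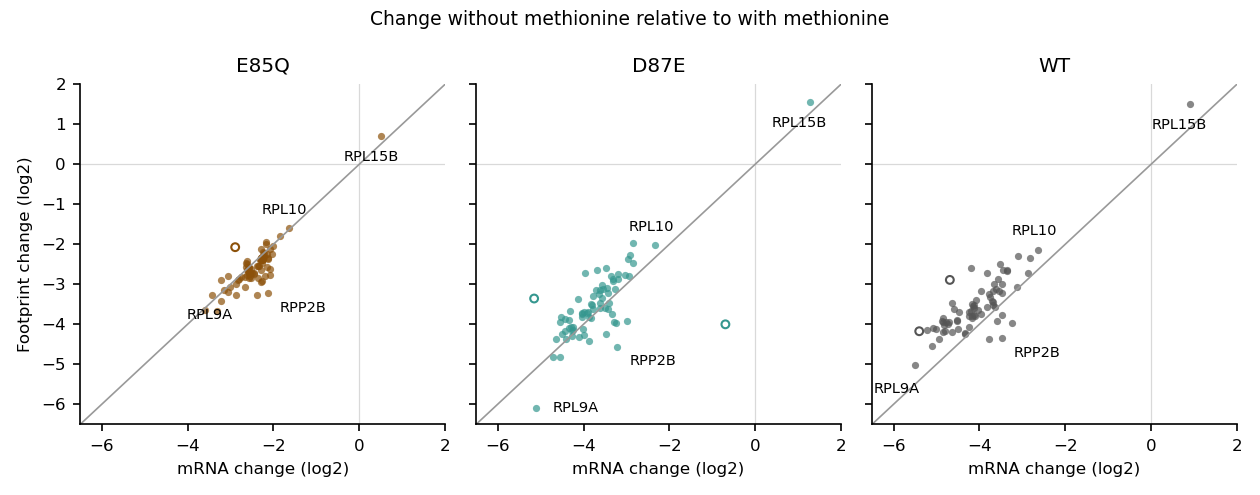
Starvation change of each member in mRNA (horizontal) against footprints (vertical), in log2 units, per genotype; the grey line marks equal change and open circles are RPL4A and RPL4B. Most points of WT lie above the line and RPP2B lies below it in all 3 panels.

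The WT rise in TE differed in size between the isolates. The median change was 0.84 in WT 172, with 68 of 73 members higher, and 0.30 in WT 600, with 55 higher. It was 0.21 and 0.28 in D87E 887 and 888, with 54 and 52 higher, and -0.04 and -0.18 in E85Q 623 and 625, with 29 and 18 higher. Leaving out starved WT 172 lowered the number of called members in WT to 26, and leaving out growing D87E 887 lowered that of D87E to 12. The 3 E85Q calls became 1 without starved 623, 0 without starved 625 or either growing E85Q library, and 6 without either starved WT library.

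The labels state that footprint libraries were pooled where possible, so footprints of growing cells could be counted in a starved library of the same isolate. An upper limit on such sharing is the lowest ratio of starved to growing footprints among genes of at least 100 RPKM in the growing library. It was 2.25% and 1.54% in E85Q 623 and 625, 0.92% and 0.90% in D87E 887 and 888, and 4.02% and 1.41% in WT 172 and 600. NSR1 set it except in WT 172, where IMD4 did. The mRNA of that gene stood at 1.53%, 1.31%, 1.44%, 0.88%, 11.01% and 1.34% of its growing level in the same order. The ratio also holds footprints that starved cells made themselves, so it is a limit and not a measured share. It is called shared footprints below. With that limit subtracted, 14 members rose and 13 fell in TE in WT (median 0.06, all-gene median -0.18). In D87E 15 rose and 12 fell (median 0.03, all-gene median -0.25). In E85Q none rose and 20 fell (median -0.30, all-gene median -0.04). The shares of all genes called after the subtraction are not given here. Falls of footprints were still called for 72 members in each genotype. The subtraction lowers TE most in genes whose footprints fell most, so falls in TE called after it are partly built into the step. How much sharing took place was not tested.

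E85Q and WT also differed in TE. Without methionine 45 members were lower in E85Q than in WT (median -0.60), beside 12% of all genes. The difference of the responses was negative in 24 members (median -0.63, background 4.44%). With the shared footprints subtracted that difference was negative in 10 of the 12 members called. Against D87E the response was lower in 6 members (median -0.38, background 4.48%). The first count was 15 without starved E85Q 625, 23 without starved WT 172 and 24, of which 21 lower, with the shared footprints subtracted. The second was 37 and 4 without starved E85Q 623 and 625, 5 without growing E85Q 623, 10 and 47 without starved WT 172 and 600, 8 without growing WT 600, and 12 with the subtraction. The third was 14 and 2 without starved E85Q 623 and 625, 1 without growing E85Q 623 or growing D87E 887, 11 and 3 without starved D87E 887 and 888, 13 without either starved WT library, and 10 with the isolate as a block.

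The stalk proteins split into 2 pairs. In yeast the acidic proteins form the heterodimers P1A with P2B and P1B with P2A, and both bind P0. RPP2B (YDR382W, chromosome IV, 1239492 to 1239824) had a log2 TE of -0.82 and -0.92 in starved E85Q against 0.35 and 0.08 with methionine, -0.87 and -1.14 in starved D87E against 0.34 and 0.35, and -0.02 and -0.95 in starved WT against 0.37 and 0.40. RPP1A (YDL081C, chromosome IV, 309802 to 310122) had -0.13 and -0.18 in starved E85Q against 0.50 and 0.57, -0.09 and -0.43 in starved D87E against 0.63 and 0.73, and 0.23 and -0.29 in starved WT against 0.62 and 0.78. Every starved library lay below the growing libraries of its genotype.

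The TE of RPP2B changed by -1.08 in E85Q (SE 0.22, adjusted p = 0.018), -1.35 in D87E (adjusted p = 0.00043) and -0.87 in WT (adjusted p = 0.0076). The TE of RPP1A changed by -0.69 in E85Q (SE 0.15, adjusted p = 0.025), -0.94 in D87E (adjusted p = 0.00042) and -0.73 in WT (adjusted p = 0.0027). The E85Q calls of both were lost on leaving out any 1 of the 4 E85Q libraries, with changes between -1.22 and -0.66, and with no filter on low values (adjusted p = 0.054 for RPP2B and 0.059 for RPP1A). The E85Q call of RPP1A was also lost with the isolate as a block (adjusted p = 0.062). With shared footprints subtracted the changes of RPP2B were -1.39, -1.73 and -1.86 and those of RPP1A -0.90, -1.16 and -1.45.

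The genes of the other heterodimer, RPP1B and RPP2A, moved the other way where they moved. RPP1B (YDL130W, chromosome IV, 229906 to 230527) had a log2 TE of 1.15 and 0.52 in starved E85Q against 1.18 and 0.70, 1.17 and 1.46 in starved D87E against 0.71 and 0.62, and 1.82 and 1.49 in starved WT against 0.75 and 0.63. RPP2A (YOL039W, chromosome XV, 254297 to 254617) had 1.02 and 0.57 in starved E85Q against 0.95 and 0.73, 1.16 and 1.18 in starved D87E against 0.77 and 0.69, and 1.77 and 1.29 in starved WT against 0.74 and 0.64. The groups overlapped in E85Q and not in D87E or WT. RPP1B rose in TE by 0.96 in WT (SE 0.21, adjusted p = 0.0033) and 0.65 in D87E (adjusted p = 0.021), and RPP2A by 0.84 in WT (adjusted p = 0.0018) and 0.44 in D87E (adjusted p = 0.041). In E85Q the changes of RPP1B and RPP2A were -0.11 and -0.04 and were not called. After the subtraction the RPP1B change was 0.43 in WT (adjusted p = 0.058) and 0.47 in D87E (adjusted p = 0.039), and that of RPP2A was 0.16 in WT (adjusted p = 0.25) and 0.22 in D87E (adjusted p = 0.12).

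In mRNA the pairs parted in the opposite sense. RPP1A changed by -2.07, -2.98 and -3.24 and RPP2B by -2.14, -3.21 and -3.48 in E85Q, D87E and WT, while RPP1B changed by -2.29, -4.32 and -4.59 and RPP2A by -2.76, -4.34 and -4.77. The ratio of RPP1A plus RPP2B to RPP1B plus RPP2A was 1.63 and 1.21 in starved E85Q against 1.13 and 0.97 in mRNA, 1.95 and 2.48 in starved D87E against 0.99 and 0.88, and 2.18 and 2.62 in starved WT against 1.02 and 0.89. In footprints the ratio was 0.56 and 0.58 in starved E85Q against 0.73 and 0.74, 0.63 and 0.60 in starved D87E against 0.83 and 0.81, and 0.67 and 0.66 in starved WT against 0.86 in both growing libraries. Starvation thus went with a higher ratio in mRNA and a lower ratio in footprints in all 3 genotypes. RPP0 (YLR340W, chromosome XII, 805887 to 806825), the anchor of the stalk, changed by -2.35, -3.98 and -4.23 in mRNA and by -2.84, -4.26 and -4.06 in footprints, with no call in TE. With shared footprints subtracted its TE changed by -0.71 in E85Q (adjusted p = 0.00019) and -0.56 in D87E (adjusted p = 0.0001). In WT it changed by -0.61 (adjusted p = 8e-05). The subtraction itself lowers TE most in genes whose footprints fell most, so these values are a limit and do not show a fall.

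The genes of zinc-binding proteins were among those with the largest TE gains. RPL37, RPL40 and RPL43 coordinate a zinc ion. All 6 of their genes rose in WT (median 0.92), as did most members, and 4 of 6 rose in D87E (median 0.88). None was called in E85Q (median 0.05). Of all tested genes 16.7% rose in TE in WT, 13.1% in D87E and 1.92% in E85Q. RPL43B (YJR094W-A, chromosome X, 608305 to 608858) had a log2 TE of 1.16 in both starved E85Q libraries against 1.01 and 0.65, 1.62 and 2.40 in starved D87E against 0.75 and 0.74, and 2.40 and 2.42 in starved WT against 0.80 and 0.81. The starved values lay above the growing ones in each genotype. RPL43B rose in TE by 1.60 in WT (SE 0.20, adjusted p = 0.00012) and by 1.26 in D87E (adjusted p = 0.00035), and the change of 0.33 in E85Q was not called. The response was lower in E85Q than in WT by -1.27 (SE 0.29, adjusted p = 0.014). With shared footprints subtracted RPL43B rose by 1.36 in WT (adjusted p = 0.00026) and by 1.17 in D87E (adjusted p = 0.00053). All 6 genes were still called in WT, where 14 of the 73 members rose. The share of all genes called after the subtraction is not given here. Against D87E the E85Q response in TE was lower by -0.94 in RPL43A (adjusted p = 0.017), -0.93 in RPL43B (adjusted p = 0.027), -0.80 in RPL37B (adjusted p = 0.041) and -0.71 in RPL40B (adjusted p = 0.0076).

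Other members with a high TE gain were RPL24A, at 1.18 in WT and 0.76 in D87E, RPL37A, at 1.11 and 1.04, RPL8A, at 1.09 and 0.56, and RPL40B, at 0.80 and 0.88 (all called). Of these RPL8A was not called in WT after the subtraction (0.26, adjusted p = 0.13), and the other 3 were. Of the 5S group 1 gene, RPL5, rose in WT, by 0.58 (adjusted p = 0.014). After the subtraction its change was -0.45 (adjusted p = 0.0042), a limit that does not show a fall. Apart from the stalk genes, the members that fell in TE were RPL22B in WT (-0.59) and D87E (-0.78), RPL9A (-0.98), RPL15A (-0.74), RPL3 (-0.64) and RPL30 (-0.52) in D87E, and RPL11A in E85Q (-0.66). With median-centred libraries the calls of RPL22B in WT and of RPL9A and RPL30 in D87E were lost.

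**Figure D4:**
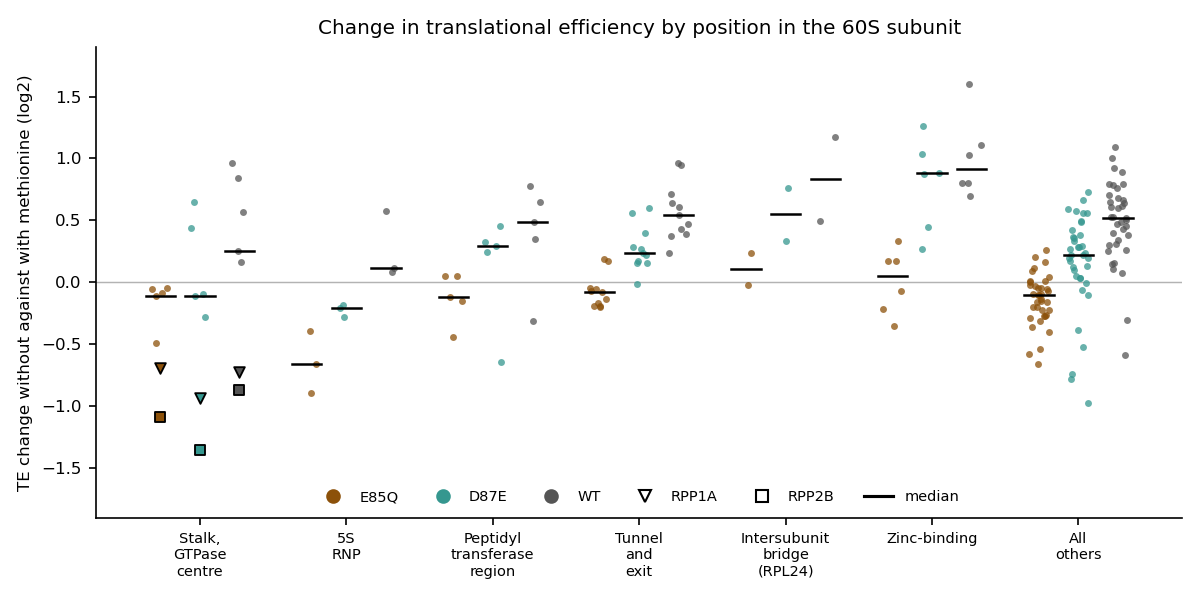
Change in log2 TE without against with methionine for each member except RPL4A and RPL4B, grouped by position in the subunit, for E85Q (brown), D87E (green) and WT (grey), with black bars at the medians. RPP1A (triangles) and RPP2B (squares) lie below 0 in each genotype, and the zinc-binding genes lie above 0 in D87E and WT.

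The paralogs of a pair often changed unequally. Of 31 A/B pairs of members, the mRNA difference A minus B changed in 10 in E85Q (4 toward A, 6 toward B), 21 in D87E (6 and 15) and 25 in WT (8 and 17). The share called among all 54 A/B pairs of the tables was 42.6%, 64.8% and 77.8%, and most of these pairs are the 31 themselves. In footprints 15 pairs changed in E85Q, 21 in D87E and 21 in WT, beside 59.3%, 68.5% and 66.7% of all pairs. In TE 3, 11 and 4 pairs changed, beside 7.41%, 22.2% and 9.26%. The E85Q mRNA count was 16 without either starved D87E library, and the E85Q footprint count 9 without growing E85Q 623. In TE the E85Q count was 0 without starved 623 or either growing E85Q library, 1 without starved 625, 8 without either starved WT library and 0 with the isolate as a block. The D87E count in TE was 7 and 4 without starved 887 and 888 and 5 and 7 without growing 887 and 888, and the WT count was 13 without starved 172 and 2 without growing 600.

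RPL12, which encodes the stalk base protein, shifted toward its B copy in all genotypes. RPL12A held 18.3% and 19.7% of the RPL12 mRNA in starved E85Q against 36.7% and 36.0% with methionine, 17.6% and 19.8% in starved D87E against 35.5% and 34.7%, and 17.8% and 18.7% in starved WT against 35.5% and 35.9%. The change of A minus B was -1.28, -1.22 and -1.29 in E85Q, D87E and WT, and E85Q and WT differed by 0.01 (SE 0.13, adjusted p = 0.95). RPL31, at the tunnel exit, shifted toward A in mRNA by 0.87, 0.64 and 0.51, and RPL7 by 1.33, 0.92 and 0.56. With a pseudocount of 10 the RPL7 change was 0.24 in D87E (adjusted p = 0.26) and turned to -0.19 in WT (adjusted p = 0.36). Introns of RPL7A and RPL7B hold snoRNA genes, and reads of snoRNAs and mRNA could not be told apart where they overlap.

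RPL26, RPL9 and RPL22 were among the pairs that shifted differently in E85Q. The mRNA response of A minus B differed between E85Q and WT in 14 of the 31 pairs, beside 24 of all 54. RPL26A, a tunnel exit gene, held 48.6% and 48.8% of the RPL26 mRNA in starved E85Q against 42.6% and 40.9% with methionine, 65.2% and 74.6% in starved D87E against 41.4% and 42.6%, and 69.3% and 74.9% in starved WT against 42.4% and 45.3%. The minor copy thus became the major one in D87E and WT and not in E85Q. The change of A minus B was 0.40 in E85Q (adjusted p over 54 pairs = 0.14), 1.68 in D87E and 1.71 in WT, and it was lower in E85Q than in WT by -1.30 (SE 0.29, adjusted p = 0.0098).

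RPL9A held 42.6% and 48.3% of the RPL9 mRNA in starved E85Q against 61.1% and 58.2%, 24.3% and 25.4% in starved D87E against 52.6% and 50.8%, and 23.0% and 22.5% in starved WT against 51.1% and 51.7%. The shift toward RPL9B was smaller in E85Q than in WT by 0.99 (SE 0.17, adjusted p = 0.0024). RPL22A held 93.8% of the RPL22 mRNA in starved E85Q against 92.7% in growing E85Q, 82.0% in starved D87E against 90.0%, and 81.3% in starved WT against 89.5% (means of 2 isolates). Rpl22 protein is known to inhibit splicing of the RPL22B transcript. The RPL22 difference A minus B changed by 0.16 in E85Q (not called), -1.03 in D87E and -1.05 in WT, and its response differed between E85Q and WT by 1.21 (SE 0.13, adjusted p = 0.00053). With a pseudocount of 10 the E85Q change in mRNA turned to -0.38 and was called (adjusted p = 0.018). In footprints the RPL22 difference changed by 0.53 in E85Q (adjusted p = 0.0053), -0.01 in D87E (not called) and 0.34 in WT (adjusted p = 0.037), and the E85Q and WT responses differed by 0.19 (SE 0.17, adjusted p = 0.38).

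The RPL22 and RPL9 pairs also differed between genotypes within a medium. With methionine RPL22A minus RPL22B was higher in E85Q than in WT by 0.56 in mRNA (SE 0.09, adjusted p = 0.0065), 1.17 in footprints (SE 0.12, adjusted p = 8.4e-05) and 0.61 in TE (SE 0.11, adjusted p = 0.032). RPL9A minus RPL9B was higher in mRNA by 0.48 (SE 0.12, adjusted p = 0.049). These were the calls among the 31 pairs, beside 7.41%, 9.26% and 1.85% of all 54 pairs in mRNA, footprints and TE. The footprint call of RPL22 held with each of the 12 libraries left out, its mRNA call was lost in 2 of the 12, its TE call in 7, and the RPL9 call in 10.

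Without methionine RPL9A minus RPL9B was lower in D87E than in WT by -1.10 in footprints (SE 0.22, adjusted p = 0.035) and -1.27 in TE (SE 0.21, adjusted p = 0.015). RPL9A held 16.1% of the RPL9 footprints in starved D87E against 29.8% in starved WT (means of 2 isolates, with no overlap between the isolates). In TE the difference A minus B was also called for RPL26 (0.62, adjusted p = 0.038), RPL17 (0.44, adjusted p = 0.036) and RPL22 (-0.44, adjusted p = 0.05, below the threshold before rounding). Beside these 1 and 4 calls stand 1.85% and 9.26% of all pairs in footprints and TE, and 0% with no call in mRNA by limma, where 3 of the 31 pairs had an unadjusted p below 0.05. Each of these D87E calls was lost with shared footprints subtracted (lowest adjusted p = 0.11), and each was lost on leaving out at least 2 of the 12 libraries in turn, the TE call of RPL9 without starved D87E 887 or 888.

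In the stalk pairs mRNA and footprints moved apart. RPP2A minus RPP2B changed in mRNA by -0.63, -1.13 and -1.29 in E85Q, D87E and WT, and in footprints by 0.41, 0.66 and 0.42. RPP1A minus RPP1B changed in mRNA by 0.23 (not called), 1.33 and 1.35, and in footprints by -0.36, -0.25 and -0.34.

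**Figure D5:**
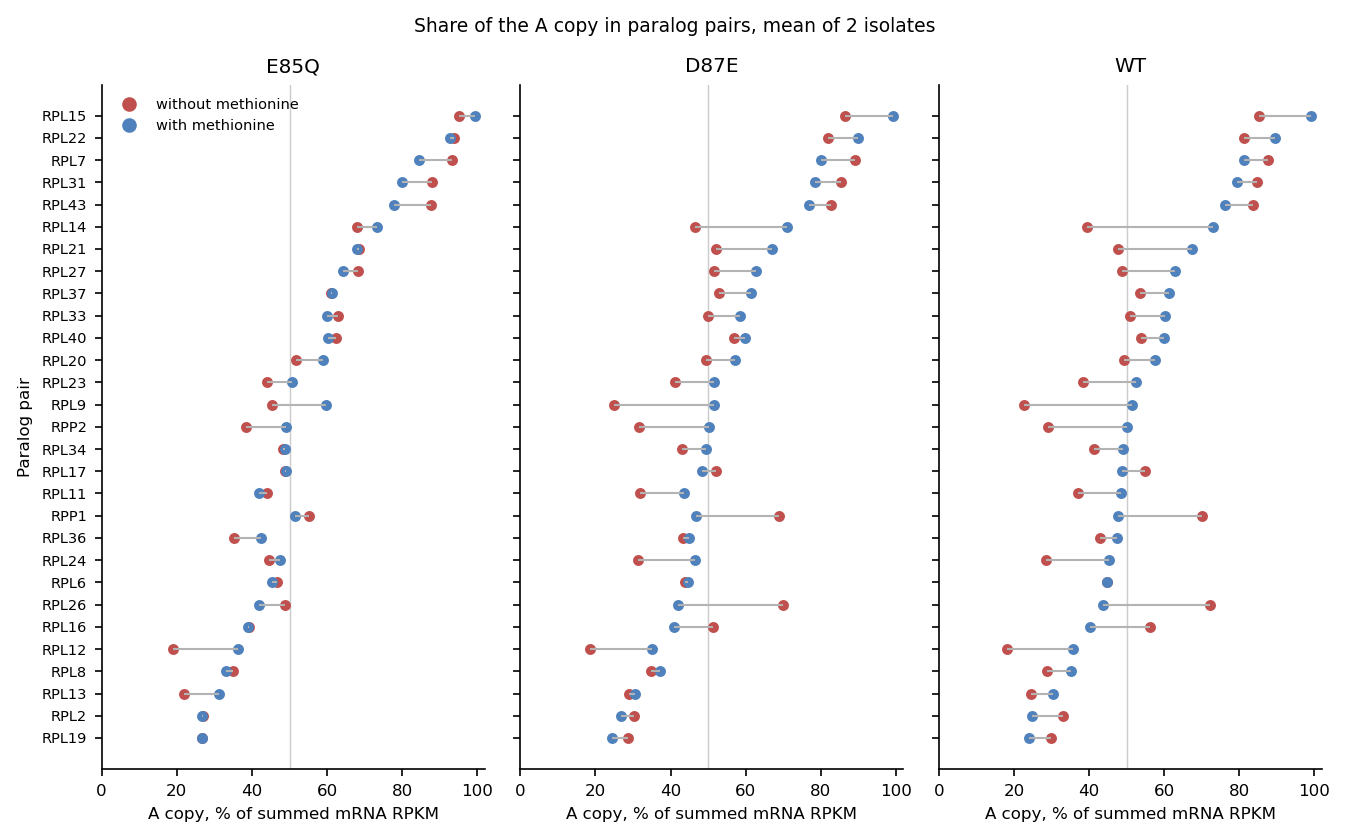
Share of the A copy in the summed mRNA RPKM of paralog pairs, in percent, as the mean of 2 isolates, without (red) and with methionine (blue). RPL4, with 5 counted positions per copy, and another pair are left out. The A copy of RPL26 is above 50% without methionine in D87E and WT and below it in E85Q.

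Genes that serve these proteins were read from lists. Dedicated chaperones bind single ribosomal proteins as they are made, and the 4 tested ones of 5 fell in mRNA and in footprints in each genotype. In mRNA SYO1, the chaperone of Rpl5 and Rpl11, changed by -4.12 in E85Q, -3.56 in D87E and -3.65 in WT, RRB1, that of Rpl3, by -3.17, -3.02 and -2.88, SQT1, that of Rpl10, by -1.51, -1.39 and -1.36, and BCP1, that of Rpl23, by -1.35, -1.01 and -0.99. Of 8 methyltransferases of 60S proteins 2 rose and 6 fell in mRNA in E85Q, 3 and 3 in D87E, and 4 and 3 in WT. Of all tested genes 46.5% rose in mRNA in E85Q, 60.7% in D87E and 60.2% in WT, and 30.3%, 25.5% and 26.7% fell. The largest change was that of RMT2, which methylates Rpl12, at -3.66, -2.81 and -2.52.

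Of 10 regulators of ribosomal protein gene transcription, 5 rose and 3 fell in mRNA in E85Q, 6 and 3 in D87E, and 7 and 3 in WT, which is near those shares of all genes. CRF1, a corepressor of these genes, changed by 3.54 in E85Q, 5.53 in D87E and 6.08 in WT. IFH1, a coactivator, changed by -0.85, -0.29 and -0.20, and FHL1, which recruits both, by 0.05 (not called), 0.68 and 0.66. STB3 and DOT6, repressors of ribosome biogenesis genes, rose by 0.84, 1.12 and 1.29 and by 0.90, 1.08 and 1.32, while TOD6, the paralog of DOT6, fell by 3.42, 3.13 and 2.85.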

How the data were processed

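The deposited values are RPKM per gene and library, which the authors computed from reads of 50 bases, counting footprints of 18 to 34 nt. Per the submitters' processing notes, Bowtie 1.1.2 and TopHat2 2.1.1 and the sacCer3 build were used, with no role given, and the masked positions are not given in the sources used here. Groups were taken from the labels. Library depth and counted positions per gene were recovered from the steps of low RPKM values, assuming 33 bases left out per gene (60.4% to 62.9% of genes gave whole reads within 0.01), and enter no main test. At these depths 3 reads in a gene of 1 kb correspond to 0.037 to 0.14 RPKM, counting error only.

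Values were taken as log2(RPKM + 1), and genes with a mean of at least 5 RPKM in each assay (4888) entered the fit. The means of 6 groups were compared in R 4.3.3 by two-sided moderated tests of the limma package, version 3.58.1, with a trend of variance on level, and with Benjamini-Hochberg adjustment over all genes. Paralog differences were fitted over 54 A/B pairs. The fit was tested on simulated data. Python 3.11.15, numpy 2.4.6, pandas 2.3.3 and matplotlib 3.10.9 made tables and plots. Coordinates and intron genes come from RefSeq (R64).

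The members and gene lists were chosen with earlier results of these data known. Named were the stalk and 5S genes, the members without a paralog, the 4 largest rises and falls among called members in each starvation comparison and response difference, and the 5 most unequal and 5 most shifted pairs. The rule asked for unique sequence, which could not be checked here, so at least 50 counted positions were asked for instead, a choice made after seeing the data. The same isolate was sampled with and without methionine, per the labels, which pairs the samples. The differences between isolates correlated between media by 0.17 in E85Q, -0.05 in D87E and -0.18 in WT for mRNA, and by 0.41, 0.05 and -0.02 for footprints. Alternatives were pseudocounts of 0.1 and 10, no filter or a mean of at least 20 RPKM, median-centred libraries, the isolate as a block and each library left out. Added after seeing the data were members with at least 100 counted positions, a crossed block in WT and the subtraction of shared footprints. One item that the naming rule picked is not reported here. The pairs named for differences between genotypes within a medium are all those called, and were chosen after their values were seen.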

Additional observations from a re-analysis of the deposited data

Results flagged for a closer look

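The differences between the starvation responses of the genotypes were tested and passed the threshold in many members. E85Q differed from WT in 67 of 73 members in mRNA, 35 in footprints and 24 in TE. E85Q differed from D87E in 62 in mRNA, 31 in footprints and 6 in TE. Both comparisons share the E85Q samples. By gene, the E85Q minus WT difference in mRNA was 2.68 for RPL8A, 2.47 for RPL24A, 2.44 for RPL9A and 2.40 for RPL16B. In footprints it was -0.81 for RPL15B, 1.84 for RPL9A, 1.53 for RPL24A, 1.51 for RPL23A, which lies on the face toward the 40S subunit, and 1.49 for RPL30. In TE it was -1.41 for RPL8B, -1.27 for RPL43B, -1.25 for RPL8A and -1.09 for RPL43A. With 2 samples per group no single sample could be examined as an outlier.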

How the results depend on the processing

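Under all alternatives run, the rise of RPL15B in D87E and WT kept its calls, and the counts of members changed by starvation in mRNA and footprints and of members differing in mRNA between starved E85Q and WT stayed within 1.5 times. Footprint and TE differences between genotypes did not, and the cause was not tested. The share of all genes called under each alternative is not given here, so the counts under alternatives have no background. With a pseudocount of 10, 1 member was called in footprints between E85Q and WT with methionine (0 otherwise), and 5 in E85Q TE against 3. With no filter, E85Q minus WT gave 9 in footprints against 35 and 15 in TE against 24, E85Q minus D87E gave 6 in footprints against 31, and E85Q TE gave 1. Median-centring gave 45 in D87E TE against 24 and 16 in E85Q minus D87E TE against 6. Subtracting shared footprints gave 55 for E85Q minus WT in footprints and 12 in TE, 18 for E85Q minus D87E TE, 24 for E85Q against WT TE without methionine against 45, and 20 in E85Q TE, 27 in WT TE against 44 and 8 pairs in WT TE against 4. A pseudocount of 0.1 gave 12 of those pairs. With the replicate block, E85Q minus D87E TE gave 10 and pairs in E85Q TE 0 against 3, and with the block crossed in WT 14 and 0; the block also ended the E85Q TE call of RPP1A (adjusted p = 0.062) and moved no other count by over 1.5 times.

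Leaving out each library in turn gave, for E85Q against WT with methionine, 0 to 9 in mRNA and 0 to 1 in footprints. For D87E against WT without methionine it gave 0 to 39 in mRNA, 0 to 2 in footprints and 0 to 19 in TE, and for D87E minus WT 0 to 1, 0 to 1 and 0 to 5. E85Q against WT without methionine gave 40 to 66 in footprints and 15 to 59 in TE, E85Q minus WT 6 to 55 and 4 to 47, and E85Q minus D87E 5 to 60 and 1 to 14. TE gave 0 to 6 in E85Q, 12 to 27 in D87E and 26 to 59 in WT. Pairs gave 9 to 16 in E85Q mRNA, 9 to 17 in E85Q footprints, and 0 to 8, 4 to 14 and 2 to 13 in TE of E85Q, D87E and WT.

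The subtraction turned the sign of WT TE changes of RPP0 (-0.61), RPL12A (-0.69), RPL5 (-0.45), RPL11A (-0.84), RPL25 (-0.15), RPL30 (-0.81), RPL38 (-0.01) and RPL12A minus RPL12B (-0.43). A pseudocount of 10 turned RPL22A minus RPL22B in E85Q mRNA (-0.38), E85Q footprints (-0.02) and WT footprints (-0.11), and RPL7A minus RPL7B in WT mRNA (-0.19). Restriction to unique 28-mers and the promoter motif search were not run. Few counted positions and 2 isolates per group limit single-gene calls, most of all for RPL4, RPL11 and RPL14.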

Other observations

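The lists of assembly and control genes moved in footprints much as in mRNA, with some differences in TE. CRF1 footprints rose by 2.82 in E85Q, 4.24 in D87E and 4.54 in WT, less than its mRNA in each genotype, and its TE fell by 0.71 (adjusted p = 0.0038), 1.29 (adjusted p = 7.2e-06) and 1.53 (adjusted p = 3.9e-06). DOT6 also fell in TE, by 0.53, 0.59 and 0.71. IFH1 footprints fell by 0.79 in E85Q and 0.32 in D87E, and the WT change of 0.03 was not called. The chaperone of Rpl5 and Rpl11, SYO1, changed in footprints by -3.89, -3.74 and -3.26. RMT2, the methyltransferase of Rpl12, changed in footprints by -3.15, -2.65 and -2.28 and rose in TE in E85Q (0.51, adjusted p = 0.039).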
